A study of Mus musculus with 8 samples.

Results

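Disp1 and Aida are a pair of protein-coding genes close to each other on mouse chromosome 1, and both had lower signal in skeletal muscle at postnatal day 65 (D65) than at birth (postnatal day 0, D0). They were chosen by their levels on these same arrays, where both had been seen to be lower at D65, so their age differences are given as a description, with no test. The probes were found by their RefSeq transcript, NM_026866 for Disp1 and NM_181732 for Aida, each on 1 probe with 1 spot per array. They are 2 of 110 coding genes with a symbol and 2 of 59709 probes. The study measured long noncoding RNAs in ICR mice, which are an outbred stock, and took skeletal muscle for 4 samples at D0 and 4 at D65, each run on a 1-colour Agilent array. No treatment or genetic change is named for either age, and the muscle taken, the sex and whether animals were pooled are not given in the sources used here. Whether each sample was a different animal is not stated, so the spread behind each p-value may be technical. None of 55 marker genes of muscle and other cell types had a named probe, so the labelled tissue could not be checked against its markers.

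Disp1 encodes Dispatched, a membrane protein of cells that make Hedgehog ligands. Hedgehog proteins carry lipids that hold them in the membrane, and Dispatched, together with secreted SCUBE proteins, lets them leave the cell and reach Patched on other cells. In the embryo, Hedgehog signals help muscle precursors to form in the somites. Aida encodes a protein that binds Axin, the scaffold of the Wnt and JNK pathways, and blocks the activation of JNK by Axin. It was named for its part in setting the dorsal and ventral sides of the early fish embryo.

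The sequences at the gene starts are shown because the start of Aida lies beside that of a neighbour measured here, Brox. RefSeq promoter windows (GRCm38.p6) hold 250 bases before and 50 after a start, and both genes matched. Disp1 has a pair of windows in the table. The one shown is the upstream one, chr1:183221480-183221779 on the minus strand. The window of Aida is chr1:183296810-183297109 on the plus strand. Brox, the coding gene just before Aida in chromosome order, starts on the opposite strand, with a first window at chr1:183296959-183297258. That window shares 151 bases with the window of Aida, whereas neither window of Disp1 shares any base with that of Aida. Brox has another window, not shown, at chr1:183297244-183297543 on the minus strand, which shares no base with that of Aida. Capitals mark matches to the motifs searched.
Disp1: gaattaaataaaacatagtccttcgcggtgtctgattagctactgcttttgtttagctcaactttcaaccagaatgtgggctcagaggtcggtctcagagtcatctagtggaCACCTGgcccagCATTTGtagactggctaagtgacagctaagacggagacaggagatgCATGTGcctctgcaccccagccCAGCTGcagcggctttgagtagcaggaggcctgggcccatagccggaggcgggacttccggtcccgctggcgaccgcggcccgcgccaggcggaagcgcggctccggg
Aida: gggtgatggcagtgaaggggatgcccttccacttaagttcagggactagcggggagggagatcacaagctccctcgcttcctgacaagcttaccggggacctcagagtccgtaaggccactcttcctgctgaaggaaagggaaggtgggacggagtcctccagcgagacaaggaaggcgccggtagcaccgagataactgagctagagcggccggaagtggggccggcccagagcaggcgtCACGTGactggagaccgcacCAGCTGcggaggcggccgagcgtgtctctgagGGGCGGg
Brox: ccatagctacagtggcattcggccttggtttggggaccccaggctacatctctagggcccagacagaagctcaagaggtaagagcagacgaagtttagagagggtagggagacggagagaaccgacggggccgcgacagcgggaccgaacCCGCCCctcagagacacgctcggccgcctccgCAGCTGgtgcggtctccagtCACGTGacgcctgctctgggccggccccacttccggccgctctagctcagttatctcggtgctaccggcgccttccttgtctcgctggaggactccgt

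The windows of both genes hold E-boxes, the 6 letters CANNTG that basic helix-loop-helix factors read. The Disp1 window shown has 4, at -138, -126, -80 and -58 from the start, each counted to the first letter of the match. The other Disp1 window has 1, CAGCTG at -104. The window of Aida has 2, CACGTG at -9 and CAGCTG at 12. At least 1 E-box is found in 72.3% of the 32851 windows of the table, at least 2 in 39.6% and at least 4 in 6.49%. Aida also has 1 GC box (GGGCGG) at 44, a motif found in 35.7% of windows. The same bases, read on the other strand, are the E-boxes at -48 and -68 and the GC box at -100 in the Brox window shown. No match was found in the windows of Disp1 or Aida for GACCACCCA (GLI, 0.253% of windows), CCAAT (37.4%), TATAAA (13.6%), TGACTCA (AP-1, 5.20%) or the MEF2-type motif (3.69%), searched on both strands. No matches overlapped in the windows shown. The share of G and C was 58.7% for the Disp1 window shown, 50.7% for its other window and 63.7% for Aida. The median over all windows was 52.7%. A match is a description of letters and not evidence that a factor binds.

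The Disp1 probe was bright at birth and dimmer in the adult. Its processed signal is the spot's brightness after background subtraction and, where applied, detrending. It was 3016.0, 3856.4, 6067.3 and 5238.8 on D0 replicates 1 to 4. On D65 replicates 1 to 4 it was 1001.3, 712.5, 883.6 and 860.8. All D0 signals lay above all D65 signals. The arrays themselves differed in brightness with age. The 75th percentile of all probes was 256 to 309 on D0 replicates 1 to 3, 136 on D0 replicate 4 and 121 to 151 on the D65 arrays. A level was therefore taken as the log2 signal minus the 75th percentile of its own array. On this scale Disp1 stood at 3.47, 3.64, 4.57 and 5.26 at D0, and at 2.92, 2.56, 2.60 and 2.51 at D65. The lowest D0 array, replicate 1, was 0.55 above the highest D65 array, also replicate 1. The mean level went from 4.24 ± 0.84 to 2.65 ± 0.19 (SD, n = 4 arrays per age), a difference of -1.59 (SE 0.37) and a 3.00-fold fall.

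Aida was also dimmer in the adult, and its scaled levels lay close together at birth. Its processed signal was 2110.0, 2414.2, 1889.9 and 938.8 on D0 replicates 1 to 4. At D65 it was 558.0, 314.3, 440.0 and 373.9. The dimmest D0 signal came from replicate 4, the D0 array with the lowest 75th percentile. The levels were 2.95, 2.97, 2.89 and 2.78 at D0, and 2.08, 1.38, 1.60 and 1.30 at D65. The 4 D0 levels lay within 0.18 of each other, and the closest arrays of the ages, D0 replicate 4 and D65 replicate 1, were 0.70 apart. The D0 values were this close only after scaling, since the D0 signals ran from 938.8 to 2414.2. The mean went from 2.90 ± 0.08 to 1.59 ± 0.35 (SD, n = 4), a difference of -1.31 (SE 0.22) and a 2.47-fold fall.

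**Figure D1:**
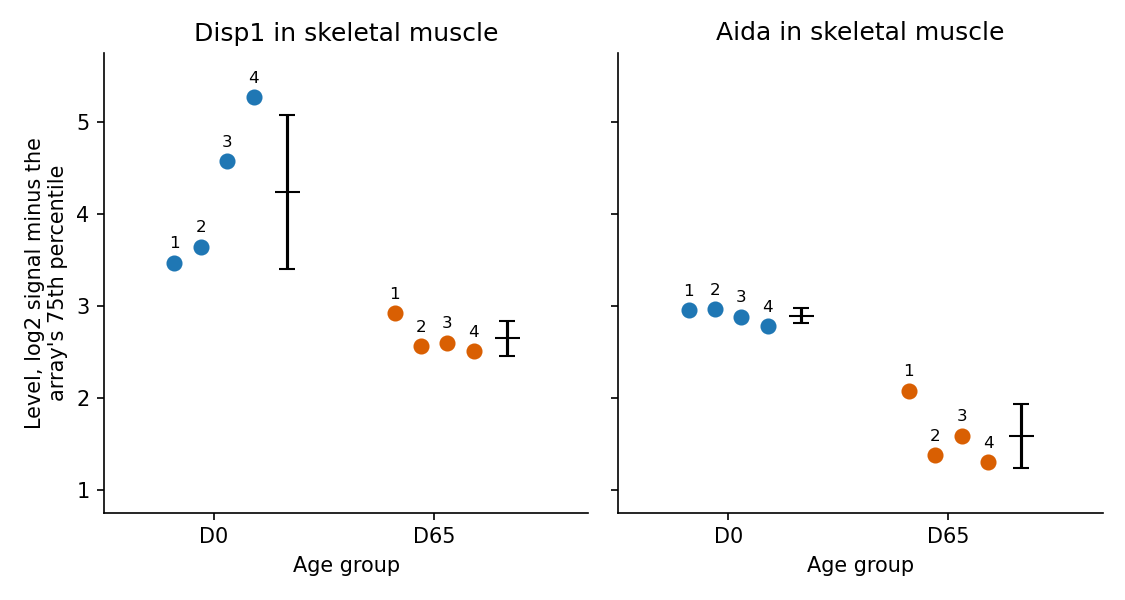
Levels of Disp1 (left) and Aida (right), as log2 signal minus the 75th percentile of the array, by age group. Points are arrays with their replicate number, and bars show mean ± SD of 4 arrays. Disp1 spans 3.47 to 5.26 at D0 and Aida 2.78 to 2.97, and in both panels every D65 point lies below every D0 point.

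In bulk RNA, fewer cells of a type that make a transcript and less transcript per cell cannot be told apart. Slide position followed age, with D0 arrays in row 1 and D65 arrays in row 2, and these cannot be told apart either. Both probes cleared background on each of the 8 arrays and no spot was saturated. The dimmest reading, Aida on D65 replicate 2, had a median brightness of 369 against a local background of 41. A call was a limma adjusted p under 0.05 with a log2 difference of at least 1. By that rule both genes counted as lower, as did 12.6% of the 34948 kept probes, meaning probes that cleared background on all 4 arrays of either age. Another 9.57% were called higher, 22.1% in all. For both genes all D65 arrays lay below all D0 arrays, which was so for 16.4% of kept probes, and in either direction 31.5% of kept probes had ages that did not overlap. Because the genes were taken from this comparison, nothing is read from these counts. The median log2 difference of all kept probes was 0.06, and relative to it Disp1 stood at -1.65 and Aida at -1.37.

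The spread of the scaled levels between arrays of one age was not alike for the pair. At D0 the SD of Disp1 was 0.84 and that of Aida 0.08, while at D65 they were 0.19 and 0.35. Before scaling, the D0 signals ran from 3016.0 to 6067.3 for Disp1 and from 938.8 to 2414.2 for Aida. On the log2 scale Aida was thus the tighter of the pair at D0 only after scaling. Probes with 20 spots per array give the spread of repeat spots. In the signal range of Disp1 and Aida, 314 to 6067, 7 such probes gave 27 readings, with a median SD of 0.08 and a highest SD of 0.11 on the log2 scale. Repeat spots hold only the error within an array and not that between samples, so these values give the scale of spot error and test nothing. Disp1 and Aida have 1 spot per array, so their own spot error was not measured.

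Scaling by 1 value per array, such as the 75th percentile, cancels in the log2 ratio of Disp1 to Aida on the same array. It was 0.52, 0.68, 1.68 and 2.48 on D0 replicates 1 to 4, and 0.84, 1.18, 1.01 and 1.20 on D65 replicates 1 to 4. All D65 ratios fell inside the range of the D0 ratios. The mean was 1.34 ± 0.92 at D0 and 1.06 ± 0.17 at D65 (SD, n = 4), a difference of -0.28 that is smaller than the D0 spread. D0 replicates 3 and 4 were high in this ratio and replicates 1 and 2 low.

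**Figure D2:**
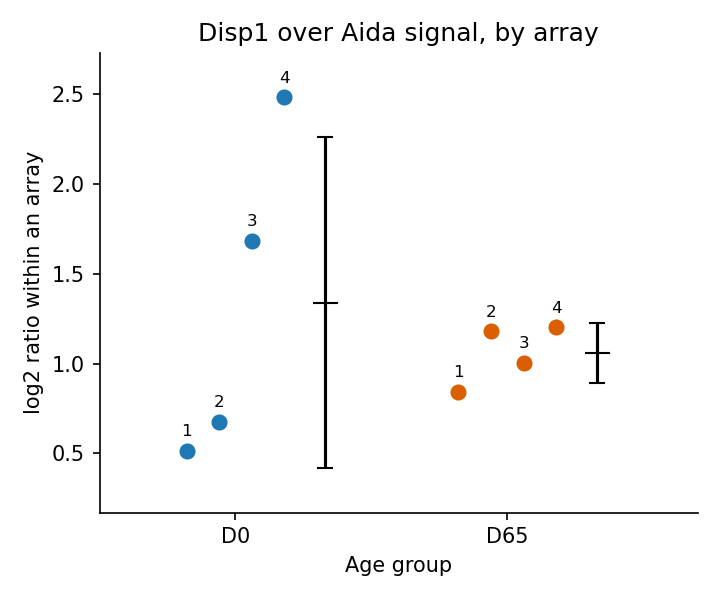
The log2 ratio of Disp1 to Aida signal within each array, by age group. Points are arrays with their replicate number and bars show mean ± SD of 4 arrays. The D0 arrays run from 0.52 to 2.48 and the D65 arrays, 0.84 to 1.20, sit inside that range.

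Over the whole array, D0 replicate 4 was the D0 array least like the rest. Its Spearman correlations with them over kept probes, which are not independent, were 0.886 to 0.913, against 0.943 to 0.973 among the other 3. Without it the difference of Disp1 was -1.24 and that of Aida -1.34, and the difference of their ratio was 0.10 in place of -0.28. Without that array Aida, not Disp1, had the larger fall. The level of Disp1 was the highest of the 8 arrays on D0 replicate 4, and that of Aida was the lowest of the 4 D0 arrays there. Before scaling, the signal of Disp1 was brightest on D0 replicate 3, at 6067.3 against 5238.8 on D0 replicate 4.

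When the 71 named coding genes whose probes were kept are ranked, Disp1 had the second lowest age difference and Aida the 7th lowest. Tuba1b, an alpha-tubulin gene, came before Disp1 in this order and Hprt, a gene of purine salvage, came after it. Of these 71 genes, 12.7% were called lower and 21.1% were called in either direction. The pair was chosen on these same differences, so the ranks are a description and test nothing. The 71 are only the genes that had a named probe, and were not drawn as a sample of all coding genes.

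**Figure D3:**
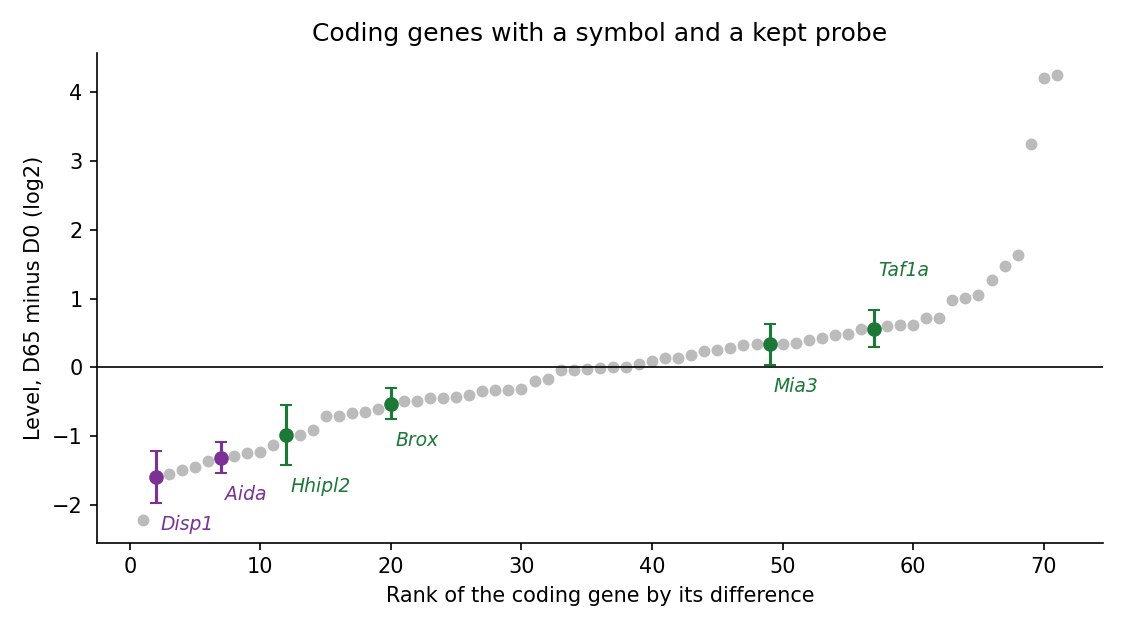
Age difference in level (log2, D65 minus D0) of 71 coding genes, each by its brightest probe, against the rank of that difference. Disp1 (-1.59) and Aida (-1.31), in purple, lie near the low end, and their neighbours Hhipl2, Brox, Mia3 and Taf1a, in green, spread from -0.98 to 0.56. Bars on these 6 genes show the SE of the limma fit, and other genes are grey. Disp1 and Aida were chosen on this difference.

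Profiles over the 8 arrays were compared by the root mean square distance between levels centred on each gene's mean, over the coding genes well above background on all 8 arrays. The 3 genes nearest to Disp1 were Tuba1b at 0.39, Ccdc82, a coiled-coil protein gene, at 0.48 and Gusb, a lysosomal glucuronidase, at 0.53. Aida came 5th of 60 at 0.59. The 3 nearest to Aida were Rpl13a, a ribosomal protein gene, at 0.19, Hprt at 0.26 and Dhrsx, of the short-chain dehydrogenase family, at 0.37. Disp1 came 14th of 60 from the side of Aida. Among all other kept probes, 34947 in number, Aida ranked 2131st by nearness to Disp1, and Disp1 ranked 6367th by nearness to Aida. Each of the pair thus had many probes closer to it than the other one. The distances take in the age difference that chose the pair, and carry no test.

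The next question was whether the genes around Disp1 and Aida differed with age too, which the choice of the pair did not use. The gene table (GRCm38.p6) lists 14 other entries within 5 places of either gene, 9 of them coding. A named probe was found for 4, in chromosome order Brox, between Disp1 and Aida, and Mia3, Taf1a and Hhipl2 beyond Aida. None of the 4 was called between the ages (limma, adjusted over all kept probes), against 22.1% of kept probes, and 2 of the 4, Brox and Hhipl2, had an unadjusted limma p under 0.05, as did 42.1% of kept probes. The levels of the ages overlapped for all 4, while 31.5% of kept probes had ages that did not overlap. These counts are no result about the region.

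Brox encodes a BRO1-domain protein that works with the ESCRT membrane-cutting machinery. Its level was 4.99, 4.73, 5.25 and 5.57 on D0 replicates 1 to 4, and 4.57, 4.45, 4.75 and 4.67 on D65 replicates 1 to 4. The ages overlapped only through D0 replicate 2 and D65 replicate 3. The difference was -0.52 (95% interval -1.03 to -0.02, limma adjusted p 0.107, n = 4 arrays per age), the direction of Aida. Over the alternatives it ran from -0.69 after normexp background correction with the 75th percentile (limma adjusted p 0.0126) to -0.30 with array weights (0.172), where the adjusted p over all alternatives ranged from 0.0126 to 0.236. The log2 ratio of Aida to Brox was -2.04, -1.76, -2.36 and -2.78 at D0, and -2.49, -3.06, -3.15 and -3.36 at D65, so the ages overlapped by D0 replicate 4 and D65 replicate 1. The mean ratio differed by -0.78, from -2.24 ± 0.44 to -3.02 ± 0.37 (SD, n = 4). The log2 ratio of Disp1 to Brox did not overlap, with -1.52 to -0.30 at D0 and -2.16 to -1.65 at D65. These ratios include the pair chosen for its fall and were not tested.

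Mia3 encodes TANGO1, which loads collagen at the exit sites of the endoplasmic reticulum. Its probe was dim, with levels from -3.02 to -1.89 at D0 and from -2.83 to -2.02 at D65, and it was well above background on 4 D0 and 3 D65 arrays. The difference was 0.34 (95% interval -0.32 to 1.00, limma adjusted p 0.421, n = 4). It was 0.59 without D0 replicate 1, 0.52 without D65 replicate 1 and 0.21 without D0 replicate 2. After normexp and quantile normalization it was 0.13, where the limma adjusted p over all alternatives ranged from 0.0741 to 0.677. Taf1a encodes a subunit of the factor that selects promoters for RNA polymerase I. Its level was 2.41, 2.34, 2.80 and 3.44 on D0 replicates 1 to 4, and 3.41, 3.15, 3.49 and 3.20 on D65 replicates 1 to 4. D0 replicate 4 lay within the D65 values and the other D0 arrays lay below all of them. The difference was 0.56 (95% interval -0.03 to 1.16, limma adjusted p 0.140, n = 4). Without D0 replicate 4 it was 0.79 with an adjusted p of 0.0123, below the minimum change, where the adjusted p over all alternatives ranged from 0.00527 to 0.311.

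Hhipl2 is named for its likeness to Hhip, a Hedgehog-binding protein. Its level was -2.07, -1.93, -0.83 and -1.07 on D0 replicates 1 to 4, and -3.19, -2.98, -1.37 and -2.30 on D65 replicates 1 to 4. It was well above background on 4 D0 and only 2 D65 arrays, replicates 3 and 4, so it was kept through D0, the age with the higher mean, and its difference rests in part on D65 readings not well above background. The difference was -0.98 (95% interval -1.95 to -0.02, limma adjusted p 0.114, n = 4). Without D65 replicate 3 it was -1.35 and was called (adjusted p 0.0314), and it was -0.06 after normexp with the 75th percentile, -0.35 after normexp with quantiles and -0.50 with array weights, where the adjusted p over all alternatives ranged from 0.0181 to 0.84.

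**Figure D4:**
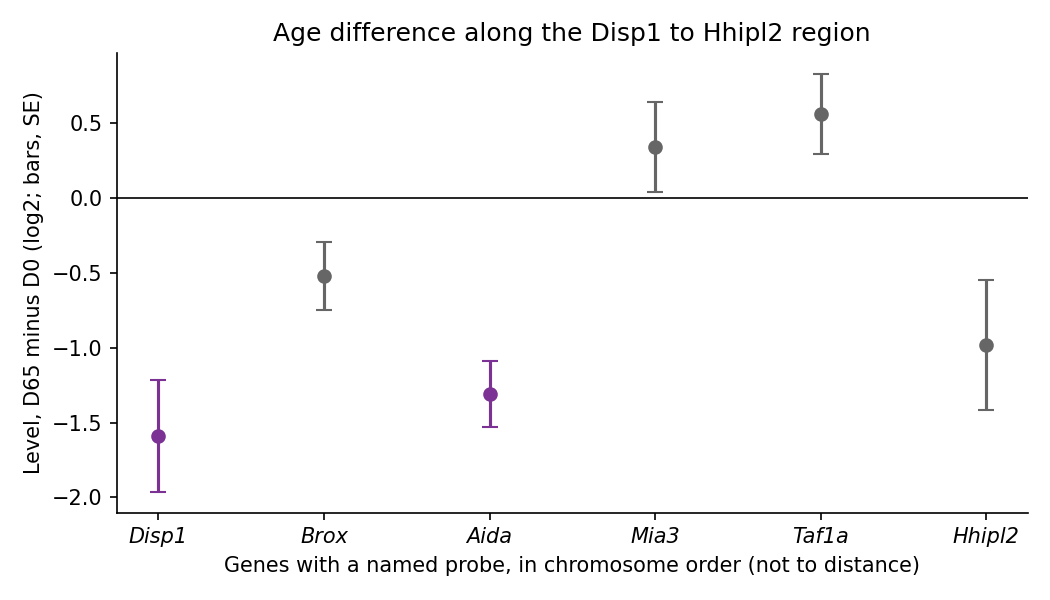
Age difference in level (log2, D65 minus D0) of the 6 genes with a named probe from Disp1 to Hhipl2, in chromosome order with no distance scale. Bars show the SE of the limma fit over 4 arrays per age. Disp1, Brox, Aida and Hhipl2 lie below 0, Mia3 and Taf1a above it.

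Other genes of the pathways could hardly be followed with these probes. Of 36 gene names listed for Hedgehog signalling, from ligands and Dispatched to Patched, Smoothened and the GLI factors, only Disp1 and Hhipl2 had a named probe. Disp1, chosen for its fall, was called lower and Hhipl2 was not called, against 12.6% of kept probes called lower and 22.1% in all. Of 30 gene names listed for Axin, JNK and dorsoventral signalling, a few of them synonyms, only Aida had one, called lower and likewise chosen for it. Nothing is read from these counts. The other 34 and 29 names were not analysed here, and an older name in a list could not match a current gene symbol. The authors' deposited table of normalized values, with 14529 probes, lists neither Disp1 nor Aida, so it gives no further reading of them.

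The genes were chosen on this contrast, so their values under other ways of processing are a description of their size. Over 19 alternatives the difference of Disp1 ran from -1.84 to -1.19 and that of Aida from -1.47 to -1.15. With array weights, which count each array by how well it fits its group, Disp1 fell by 1.19 and Aida by 1.47, the reverse of their order by size. The plot of differences by processing shows Disp1 with the wider range of the pair.

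**Figure D5:**
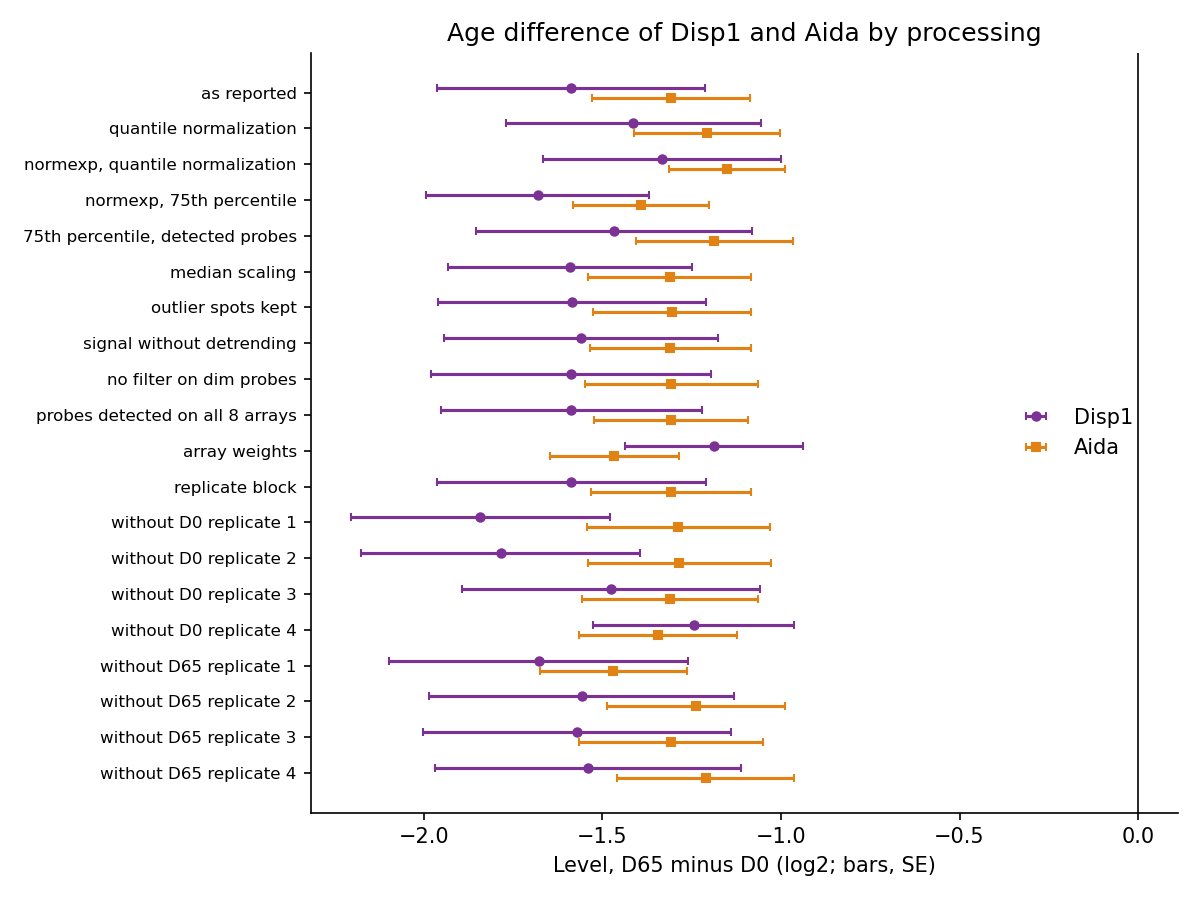
Age difference in level (log2, D65 minus D0) of Disp1 (circles) and Aida (squares) as reported and under 19 alternatives, with SE bars. All values lie between -1.84 and -1.15, and the order of the pair turns with array weights and without D0 replicate 4.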

How the data were processed

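Total RNA of mouse skeletal muscle was depleted of ribosomal RNA, copied with random primers and labelled with Cy3, per the labels' protocols. The deposited scanner files hold the intensity of each spot, read with Agilent Feature Extraction 11.0.1.1 on a grid built for mm9, per the file headers. Other columns flag each spot as clear of background, saturated or an outlier, per the file headers. The authors' table of normalized intensity lists none of the genes described, and its steps are not given in the sources used here.

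Control, negative-control and outlier spots were left out and spots of a probe averaged. Levels are log2 processed signal minus the 75th percentile of the array. For 34948 kept probes, limma 3.58.1 (R 4.3.3) gave the difference of D65 from D0, with Benjamini-Hochberg adjustment. The fit was also run on simulated data. These had independent probes and few changes, unlike the arrays here, and nothing is read from that run. RefSeq accessions named 123 probes, and 116 were found in a gene table of GRCm38.p6, used for names and gene order. Its gene coordinates were used to set that order and to leave out very long entries. The genes, lists and tests were chosen with earlier results of these data known. The genes named are Disp1 and Aida, the 3 nearest to each, their neighbours and list members. The number of arrays limits the precision. Alternatives changed the background correction, scaling, filter, weights, detrending and arrays used, and detrending was added after seeing the data.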

Additional observations from a re-analysis of the deposited data

Results flagged for a closer look

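In 26 gene-by-age groups of 4 arrays, a single array was set well apart in 1 group, where chance gives about 1 in 20. The gene is Rpl13a, the nearest in profile to Aida. The gap took up 0.925 of the range. On D65 replicate 1 it stood at 4.10, against 3.79 to 3.81 on the other D65 arrays. The level of Aida was also highest on that array among the D65 arrays, at 2.08 against 1.30 to 1.60. So was that of Disp1, at 2.92 against 2.51 to 2.60. Rpl13a was picked as nearest to Aida over these same arrays, so their likeness on this array is no separate result.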

How the results depend on the processing

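Disp1 and Aida were chosen for their fall on these arrays, so their sign under the alternatives is no test of it. Leaving out 1 array at a time gave -1.84 to -1.24 for Disp1, -1.47 to -1.21 for Aida and -0.55 to 0.10 for their ratio, whose sign turned without D0 replicate 4 and, at 0.28, with array weights. For Hhipl2, leaving out an array gave -1.35 to -0.74, and it was called without D65 replicate 3. Brox, Mia3 and Taf1a kept their direction and were not called, with ranges over the alternatives of -0.69 to -0.30, 0.13 to 0.59 and 0.39 to 0.80. The probes called over the whole array numbered 7739, against 4258 after normexp with quantile normalization and 4486 after normexp with the 75th percentile, and 6898 to 9243 without 1 array. The cause was not tested. The median difference of all kept probes moved from 0.06 to 0.18 when the percentile was taken from detected probes only, and to 0.20 after normexp with the 75th percentile. Of the 3 genes nearest to Disp1, 0 were among the nearest 3 by correlation within ages. For Aida 2 were. The correlations with Disp1 within ages were 0.945 for Tuba1b, 0.938 for Ccdc82 and 0.638 for Gusb. They were as high for a gene unlike it by distance, with 0.936 for Taf1a, 36th of 60 and higher at D65. For Brox the value was 0.835. The correlations with Aida within ages were 0.651 for Rpl13a, 0.173 for Hprt and 0.819 for Dhrsx. Between Disp1 and Aida the correlation was -0.016. These correlations were not tested.

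Whether replicate numbers pair the samples is not stated. The deviations of same-numbered arrays, which shared a slide column, correlated at -0.12, 0.24, 0.28 and -0.13. Those of differently numbered arrays correlated at -0.20 to 0.34. With so few arrays these values cannot settle the pairing. With the replicate number as a block 7750 probes were called. Under the block Hhipl2 had an adjusted p of 0.0181 with a difference of -0.98, below the minimum change. The deposited value table could not be used as an alternative, since it lists none of these probes. With 1 spot per gene and array, spot error was not measured for Disp1 or Aida. Mia3 and Hhipl2 were near background.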
